A study of Mus musculus with 3 samples.

Results

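The 5 genes of the ionotropic kainate receptor subunits, Grik1 to Grik5, were examined for 5-hydroxymethylcytosine (5hmC) in genomic DNA of mouse cerebellum. Every 10 kb bin that overlaps the RefSeq body of one of these genes was taken, which gave 187 bins of the 264399 in the deposited table. Of these, 41 bins belonged to Grik1, 71 to Grik2, 23 to Grik3, 44 to Grik4 and 8 to Grik5, and all 187 had a value in each library. The study lists 3 libraries, with 1 listed per group. They are DDD-seq of cerebellum after chronic sleep deprivation, ACE-seq of cerebellum whose treatment is labelled normal/control, and DDD-seq of normal cerebellum with the same treatment label. DDD-seq (double-stranded DNA deamination sequencing) glycosylates 5hmC and then deaminates the other cytosines with the enzyme domain SsdAcat, and the cytosines still read as C are taken as 5hmC. For ACE-seq, which likewise protects glycosylated 5hmC but is known for an APOBEC deaminase, the labels repeat the SsdAcat text. Strain, age, sex, the sleep deprivation procedure and the number of animals are not stated in these labels.

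Kainate receptors are glutamate-gated cation channels built from 4 subunits, and they act both at postsynaptic sites and on transmitter release. GluK1, GluK2 and GluK3, encoded by Grik1, Grik2 and Grik3, can form channels on their own, whereas GluK4 and GluK5, encoded by Grik4 and Grik5, bind kainate with high affinity but need a partner of the other kind to form a channel. In rodent cerebellum, granule cells are known for GluK2 and GluK5. The base 5hmC is made from 5-methylcytosine by TET enzymes, is abundant in neurons, and is commonly found over the bodies of expressed genes. The table holds DNA values only, so no transcript level of any subunit was measured.

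Promoter sequences from RefSeq (GRCm38.p6, 250 bases before to 50 after the start site) were matched for 4 of the 5 genes, Grik2, Grik3, Grik4 and Grik5, and 3 of them are shown to set their CpG content beside the start-site bins described further on. Capitals mark CpG dinucleotides, the main site of cytosine methylation. The search string was CG, which reads the same on both strands and was counted without overlap. The Grik2 promoter (chr10:49788705-49789004, minus strand) holds 26 CpGs, the Grik3 promoter (chr4:125490446-125490745, plus strand) 50 and the Grik5 promoter (chr7:25072320-25072619, minus strand) 10.
Grik2: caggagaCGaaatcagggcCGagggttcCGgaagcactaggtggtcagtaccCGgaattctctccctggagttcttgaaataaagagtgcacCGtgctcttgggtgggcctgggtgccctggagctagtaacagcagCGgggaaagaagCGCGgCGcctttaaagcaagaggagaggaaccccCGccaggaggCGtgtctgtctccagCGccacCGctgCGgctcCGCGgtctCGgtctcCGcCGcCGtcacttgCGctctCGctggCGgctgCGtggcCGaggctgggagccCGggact
Grik3: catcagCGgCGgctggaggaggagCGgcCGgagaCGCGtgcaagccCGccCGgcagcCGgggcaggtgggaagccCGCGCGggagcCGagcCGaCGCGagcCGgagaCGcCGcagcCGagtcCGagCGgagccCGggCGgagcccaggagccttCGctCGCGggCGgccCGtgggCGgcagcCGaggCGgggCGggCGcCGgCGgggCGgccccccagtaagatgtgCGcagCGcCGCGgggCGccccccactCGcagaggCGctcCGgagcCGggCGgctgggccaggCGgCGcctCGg
Grik5: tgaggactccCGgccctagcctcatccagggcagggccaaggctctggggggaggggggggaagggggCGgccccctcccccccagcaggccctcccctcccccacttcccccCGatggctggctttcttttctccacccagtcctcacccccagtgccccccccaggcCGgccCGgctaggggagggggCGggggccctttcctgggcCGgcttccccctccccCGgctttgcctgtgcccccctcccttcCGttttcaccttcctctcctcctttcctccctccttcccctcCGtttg

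The promoter of Grik4 (chr9:42944322-42944621, minus strand) holds 42 CpGs. Among 32851 RefSeq promoters of this length the median was 7 CpGs, and 94.6% held at least 1. A count as high as that of Grik2 was found in 16.9% of them, as high as that of Grik3 in 0.855%, as high as that of Grik4 in 3.03% and as high as that of Grik5 in 43.5%. A bin of 10 kb is far longer than such a promoter, so the 5hmC level of the promoters themselves was not resolved.

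Grik2 stood apart from the other subunit genes in the level of 5hmC over its body. The level is the deposited fraction in percent, averaged over the bins of a gene, with its standard error (SE) over bins, which measures scatter inside the gene and not between animals. Grik2 (chr10:49093680-49790161) had 4.94% ± 0.289 in the sleep-deprived DDD-seq library, 5.05% ± 0.307 in the ACE-seq control and 5.02% ± 0.291 in the DDD-seq control. These 3 values lay within 1 SE of each other. In bulk tissue, 5hmC on more alleles of a cell type and a larger share of cells of that type cannot be told apart. Of the 1091 protein-coding genes that span 20 bins or more, whose medians were 1.73%, 1.69% and 1.74% in the same libraries, Grik2 ranked 12, 10 and 11 from the top. Of the 126 genes of at least 71 bins, 98.4% were lower than Grik2 in the DDD-seq control, where their median was 1.82%.

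**Figure D1:**
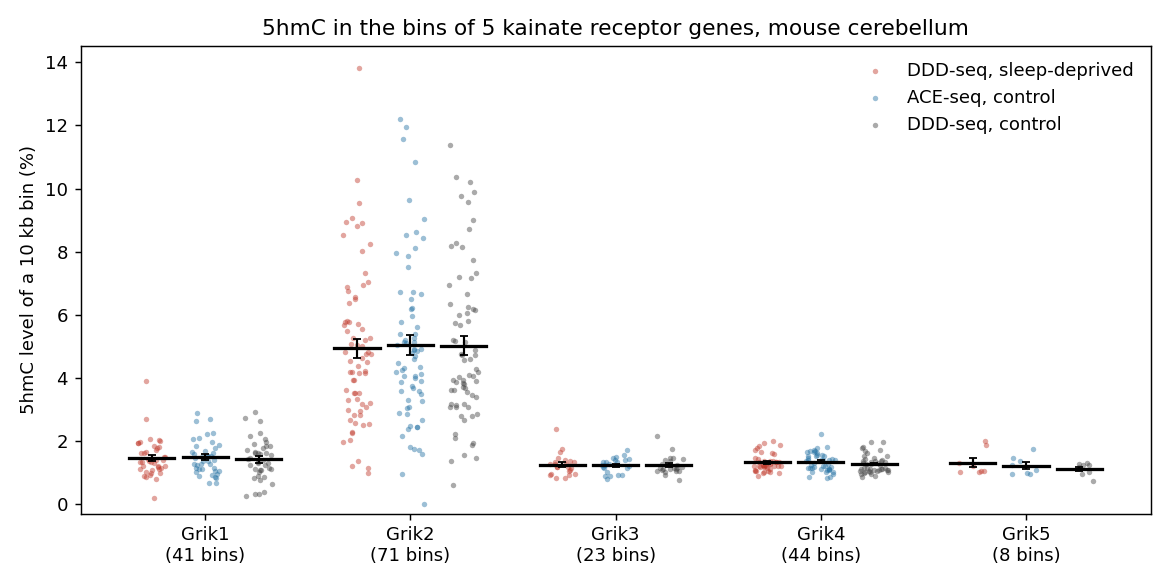
5hmC level in percent of every 10 kb bin of Grik1 to Grik5 (points) in the 3 libraries, with the mean over bins (black line) and its SE (error bar). Grik2 averages about 5% in each library, with bins up to 13.8%, and the other 4 genes average between 1.12% and 1.49%.

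The remaining subunits had low levels, and neighbours in their order were hardly separated. Grik1 (chr16:87895901-88290863) had 1.47% ± 0.0929 in the sleep-deprived library, 1.49% ± 0.0844 in the ACE-seq control and 1.42% ± 0.0990 in the DDD-seq control. Grik3 (chr4:125490259-125714173) had 1.25% ± 0.0720, 1.23% ± 0.0497 and 1.24% ± 0.0610 in the same libraries. These values were close to the lower end of genes of this size: 6.32%, 8.71% and 5.41% of the 1091 genes were lower than Grik3.

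Grik4 (chr9:42518182-42945000) had 1.32% ± 0.0414 in the sleep-deprived library, 1.34% ± 0.0448 in the ACE-seq control and 1.27% ± 0.0428 in the DDD-seq control. Grik5 (chr7:25009849-25075694), the shortest of the genes, had 1.32% ± 0.142, 1.22% ± 0.102 and 1.12% ± 0.0696 in the same order. Over the 6664 genes of at least 5 bins the median was 1.53%, 1.49% and 1.54% in these libraries, and Grik3, Grik4 and Grik5 were below it in all 3. Grik1 was below it in both DDD-seq libraries and at about the median in the ACE-seq control, with 44.0% of the genes lower after sleep deprivation, 50.2% in the ACE-seq control and 37.5% in the DDD-seq control. In the same libraries, 18.0%, 21.5% and 17.6% of the genes were lower than Grik3, and 27.2%, 33.5% and 21.4% were lower than Grik4. The place of Grik5 varied most, with 26.7%, 20.5% and 7.58% of the genes lower. Among the 1091 genes of at least 20 bins, Grik1 and Grik4 placed lower. There 26.3%, 34.8% and 21.3% of the genes were lower than Grik1, and 10.3%, 18.0% and 7.24% lower than Grik4.

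In each library Grik2 came first, followed by Grik1 and then Grik4. The gap between Grik2 and Grik1 was 3.46 points in the sleep-deprived library, 3.56 points in the ACE-seq control and 3.61 points in the DDD-seq control, or 11.4, 11.2 and 11.7 SE of the gap. No other pair of neighbours in the order was more than 1.59 SE apart in any library. The order of Grik3 and Grik5 at the bottom was not stable: Grik3 was the lowest gene in the sleep-deprived library and Grik5 in both controls.

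Single bins showed the same separation. Of the 71 bins of Grik2, 49 were at 3% or more in all 3 libraries. None of the 116 bins of the other genes reached 3% in all 3 libraries, and 1 reached 2% in all of them. That bin lies in Grik1 (chr16:88250001-88260000) and had 3.89% in the sleep-deprived library, the highest single value outside Grik2, with 2.63% in the ACE-seq control and 2.65% in the DDD-seq control. The bins of Grik2 were also more uneven than those of its relatives: their SD over bins was 2.43 points in the sleep-deprived library, 2.58 in the ACE-seq control and 2.46 in the DDD-seq control, against 0.345, 0.238 and 0.293 points over the bins of Grik3. Relative to the mean this was 48.9% for Grik2 in the DDD-seq control, 44.8% for Grik1 and 23.6% for Grik3.

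The uneven profile of Grik2 recurred between libraries. Across its 71 bins, Pearson's r was 0.815 between the sleep-deprived and control DDD-seq libraries, 0.820 between the ACE-seq and DDD-seq controls and 0.742 between the sleep-deprived and ACE-seq libraries. These bins share their sequence and base composition between libraries, and the values are given as a description. Grik1 had 0.527, 0.305 and 0.444 in the same order, and Grik3 had 0.525, 0.274 and 0.310. Grik5 had 0.213, -0.625 and 0.270 over 8 bins only. Grik4 had 0.165, 0.157 and 0.234 over 44 bins, so that which of its bins were higher differed between libraries. With depth unknown, measurement noise and a different profile cannot be told apart here. Over the 1091 genes of at least 20 bins the median r was 0.600, 0.549 and 0.566.

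The high level of Grik2 ended near the ends of the gene. The 100 kb on each side of the gene had a mean of 1.61% in the sleep-deprived library, 1.86% in the ACE-seq control and 1.84% in the DDD-seq control, so that the body was 3.07, 2.71 and 2.73 times the flanks. No protein-coding gene lies in these flanks, and a pseudogene, Gm18512, lies inside Grik2. Of 6662 protein-coding genes with 5 bins or more and flank values, 13.3% had a body of at least 1.5 times the flanks in all 3 libraries, and 1 of the 5 kainate receptor genes, Grik2, did so. At 2 times the flanks the share of genes was 4.16%, and Grik2 was again the only member. Of the genes of at least 20 bins, which leaves out Grik5, 20.5% passed at 1.5 times and 6.6% at 2 times the flanks. Long genes with a high level commonly had such a ratio: for the 93 genes of at least 20 bins at 3% or more in all 3 libraries, the median of the lowest ratio over libraries was 2.15, and 12 of them, Grik2 included, reached the 2.71 of Grik2.

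**Figure D2:**
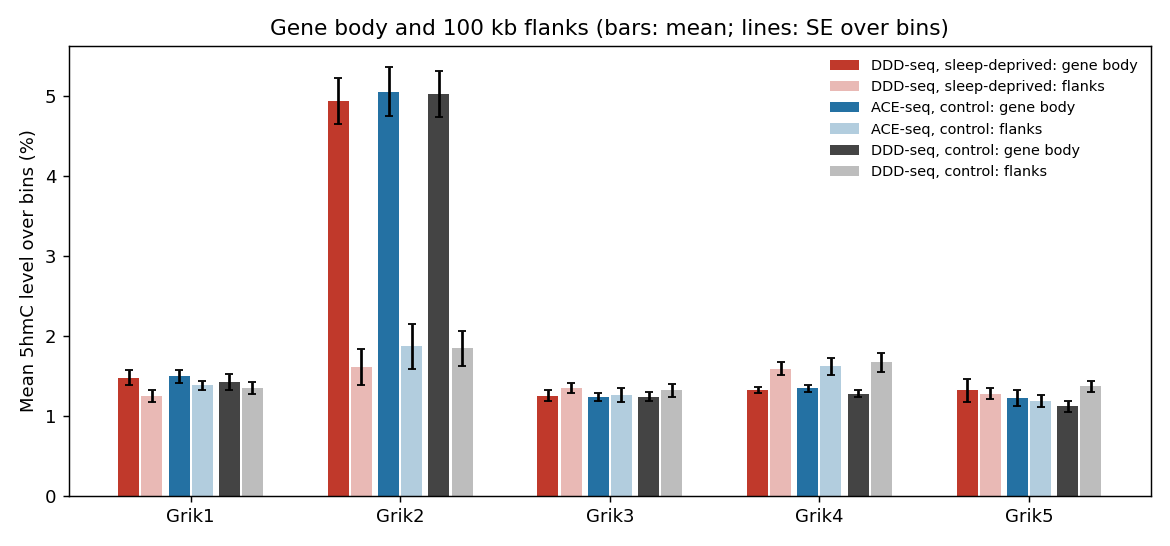
Mean 5hmC level in percent over the gene body (full colour) and over the 100 kb on each side (pale) of each gene in the 3 libraries, with lines for the SE over bins. The body exceeds the flanks by more than 3 points in Grik2, whereas body and flanks differ by less than 0.4 points in the other 4 genes.

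The edges of the Grik2 signal did not coincide exactly with the annotated ends. The bin next to its 3′ end (chr10:49080001-49090000), outside the gene, had 4.87% in the sleep-deprived library, 3.78% in the ACE-seq control and 2.53% in the DDD-seq control. Beyond that bin, no flanking bin on this side exceeded 2.62% in any library. On the 5′ side, the bin outside the gene (chr10:49800001-49810000) had 3.12%, 6.39% and 4.95% in the same libraries, and the bin after it had 0.856%, 1.69% and 1.15%.

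The other subunits did not rise above their surroundings to a like extent. Body minus flank differences in Grik1 were 0.223 points in the sleep-deprived library, 0.115 in the ACE-seq control and 0.0754 in the DDD-seq control. With flanks of 200 kb they were 0.0815, 0.0467 and -0.0691 points. In Grik3 they were -0.0917, -0.0255 and -0.0762 points. In Grik4 the body was below its flanks, with differences of -0.266, -0.276 and -0.393 points. The Grik4 flanks hold Tbcel, related to tubulin-folding cofactors, and Arhgef12, a guanine nucleotide exchange factor gene. Few flanking bins were free of protein-coding genes (chr9:42480001-42510000 and chr9:42950001-42960000). With these alone, the differences of Grik4 were -0.0413 points in the sleep-deprived library, 0.0513 in the ACE-seq control and -0.164 in the DDD-seq control. The sign thus turned in the ACE-seq control, on these few bins only.

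Grik5 lies in a gene-dense stretch, with 6 protein-coding genes in its flanks, and it overlaps Zfp574 at its 5′ end. Its body minus flank differences were 0.0414 points in the sleep-deprived library, 0.0405 in the ACE-seq control and -0.246 in the DDD-seq control. The sign thus differed between the sleep-deprived and control DDD-seq libraries. The only flanking bin free of protein-coding genes was chr7:24950001-24960000. Against that bin alone the differences were 0.185, -0.178 and -0.0747 points. No direction held across libraries with either set of flanks.

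Inside Grik2 the level declined from the 5′ end to the 3′ end. With the 71 bins divided into 3 parts of 24, 24 and 23 bins, the part at the 5′ end had 6.41% ± 0.590 in the sleep-deprived library, 6.64% ± 0.606 in the ACE-seq control and 6.86% ± 0.554 in the DDD-seq control. The middle part had 4.87% ± 0.420, 4.36% ± 0.405 and 4.48% ± 0.393. The part at the 3′ end had 3.46% ± 0.213, 4.10% ± 0.399 and 3.68% ± 0.275. The 5′ part was thus 1.85, 1.62 and 1.86 times the 3′ part. A ratio of at least 1.5 in all 3 libraries was found in 8.11% of 826 protein-coding genes with a known strand and 20 bins or more, and in 33.8% of the 71 of these genes at 3% or more in all 3 libraries. Of the 3 kainate receptor genes that could be examined in this way, Grik2 met it, and Grik3 and Grik4 did not.

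**Figure D3:**
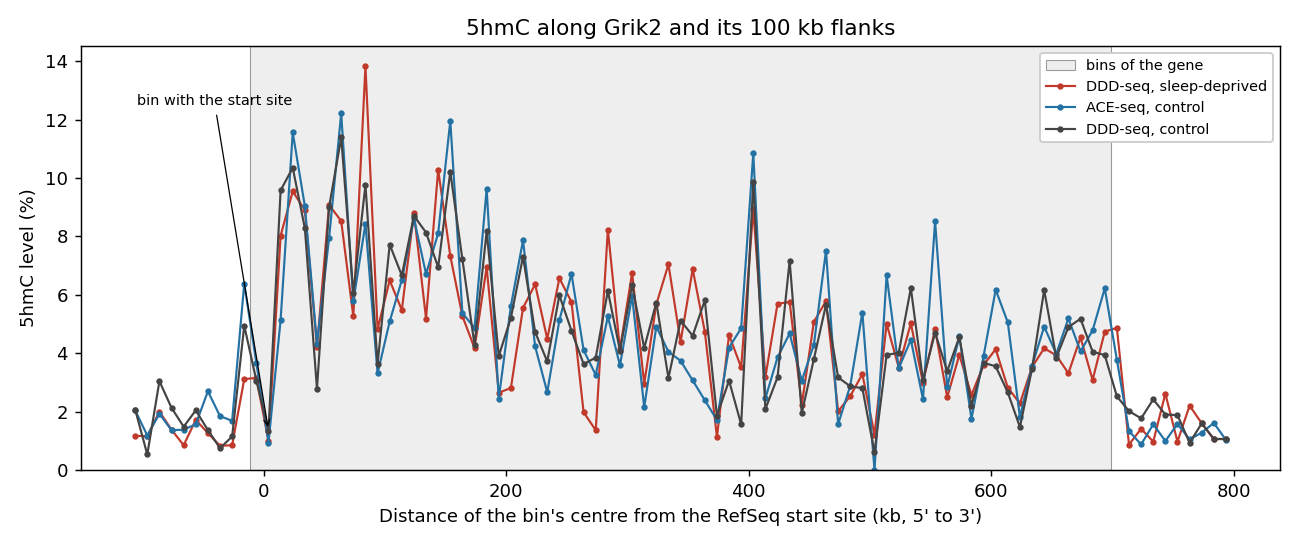
5hmC level in percent of each 10 kb bin along Grik2 and its 100 kb flanks in the 3 libraries, plotted from 5′ to 3′ by the distance in kb from the RefSeq start site, with the bins of the gene shaded. The bin with the start site is near 1% in each library, and the highest bin of each library follows within 100 kb of it. The 10 bins with centres from 593.8 to 683.8 kb average 3.54% to 4.35%.

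Finer stretches showed where the decline lay. In successive stretches of 10 bins from the 5′ end, the sleep-deprived library had 7.16%, 6.48%, 4.58%, 4.84%, 4.48%, 3.49% and 3.54%. The ACE-seq control had 6.91%, 7.02%, 4.73%, 3.58%, 4.61%, 4.02% and 4.35%, and the DDD-seq control 7.17%, 7.17%, 4.93%, 4.40%, 4.14%, 3.56% and 3.90%. In each library both stretches of the first 200 kb were higher than every later one. A total of 6 bins reached 8% in all 3 libraries. Of these, 5 had their centres between 23.8 and 123.8 kb from the start site, and the remaining one had its centre at 403.8 kb (chr10:49380001-49390000), with 8.94% in the sleep-deprived library, 10.8% in the ACE-seq control and 9.88% in the DDD-seq control.

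The 3 highest bins by the mean of the 3 libraries were all in the 5′ part of the gene. The bin chr10:49720001-49730000 had 8.53% in the sleep-deprived library, 12.2% in the ACE-seq control and 11.4% in the DDD-seq control. The bin chr10:49700001-49710000 had 13.8%, 8.44% and 9.77%, and chr10:49760001-49770000 had 9.55%, 11.6% and 10.4%. The rank of such bins changed between libraries. The sleep-deprived minus control difference in DDD-seq was 4.06 points in the bin that was highest after sleep deprivation. It was -2.86 points in the highest bin of both controls. Each bin was picked as the highest of a library, so the sign of its difference partly follows from that choice.

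The bin that holds the Grik2 start site was a deep gap in this profile. That bin, chr10:49780001-49790000, contains the promoter printed above and had 1.0% in the sleep-deprived library, 0.943% in the ACE-seq control and 1.36% in the DDD-seq control. The next 5 bins into the gene averaged 7.95%, 7.61% and 8.0%, so that the start bin had 0.126, 0.124 and 0.170 times their level. Both neighbours of the start bin were higher in every library. A start bin at or below 0.5 times the next 5 bins in all 3 libraries was found in 9.23% of 823 protein-coding genes with a known strand and 20 bins or more, and Grik2 was the only one of the 3 members among them to have it. Of the 71 of these genes at 3% or more in all 3 libraries, 41 had it (57.7%), with a median ratio of 0.449. By the highest ratio of the 3 libraries, no other of the 823 genes had a ratio as low as that of Grik2; the measure was chosen after the values of Grik2 were seen, and this rank is a description.

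**Figure D4:**
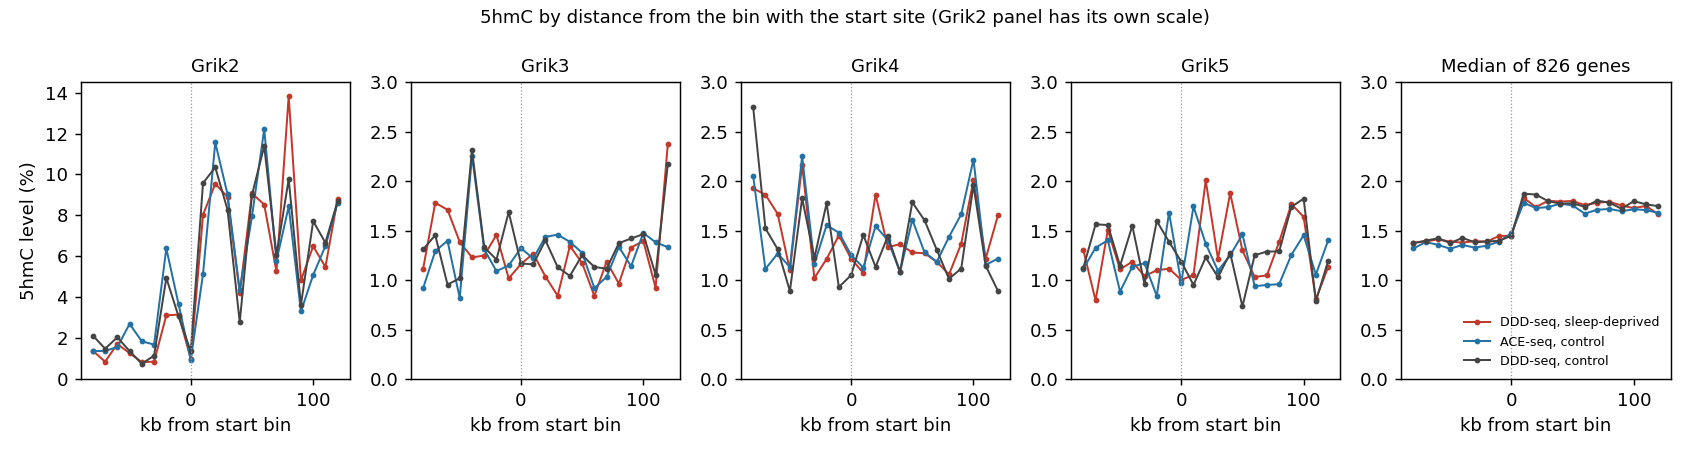
5hmC level in percent by distance in kb from the bin with the start site (0; positive values run into the gene) in the 3 libraries, for 4 members and as the median of up to 826 genes with a known strand. In the Grik2 panel, which has its own scale, the start bin lies near 1% between higher bins. The start bins of Grik3, Grik4 and Grik5 have between 0.673 and 1.14 times the level of their next 5 bins.

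The start bins of the other subunits had levels near that of Grik2, but their next 5 bins averaged between 1.04% and 1.49% only. Grik3 had 1.16% in its start bin in the sleep-deprived library, 1.32% in the ACE-seq control and 1.17% in the DDD-seq control, which were 1.03, 0.976 and 0.976 times its next 5 bins. Grik4 had 1.22%, 1.26% and 1.05%, at 0.881, 0.926 and 0.761 times the next 5 bins. Grik5 had 1.0%, 0.974% and 1.19%, at 0.673, 0.703 and 1.14 times. Start bins of the 4 genes therefore lay between 0.943% and 1.36%, and the promoters they hold carry from 10 to 50 CpGs.

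A further 2 bins of Grik2 were under 2% in all 3 libraries, both far from the start site. The bin chr10:49280001-49290000, with its centre at 503.8 kb from the start site, had 1.22% in the sleep-deprived library, 0% in the ACE-seq control and 0.612% in the DDD-seq control. The bin chr10:49410001-49420000 had 1.14%, 1.72% and 1.87%. The depth behind these bins is unknown, so a listed 0 is not shown to be an absence of 5hmC.

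The other genes had smaller differences in points along their length, and their pattern differed between libraries in Grik3, Grik4 and Grik5. In Grik4 the 5′, middle and 3′ parts had 1.36%, 1.39% and 1.21% after sleep deprivation, 1.36%, 1.38% and 1.28% in the ACE-seq control and 1.31%, 1.19% and 1.32% in the DDD-seq control. In Grik3 the middle part was the highest in both controls, with 1.30% in the ACE-seq control and 1.47% in the DDD-seq control, while after sleep deprivation it had 1.32% and the 3′ part 1.33%. The 3′ part of Grik3 had 1.13% in the ACE-seq control and 1.04% in the DDD-seq control. The highest bin of Grik3, chr4:125610001-125620000, had 2.37% in the sleep-deprived library, 1.33% in the ACE-seq control and 2.17% in the DDD-seq control, so it stood out in DDD-seq only. In Grik5, over parts of 3, 3 and 2 bins, the level was 1.36%, 1.47% and 1.04% after sleep deprivation, 1.36%, 1.27% and 0.946% in the ACE-seq control and 1.12%, 1.01% and 1.27% in the DDD-seq control. Grik1, given by position on the chromosome, was higher towards the high coordinates: its parts had 1.21%, 1.56% and 1.66% after sleep deprivation, 1.38%, 1.48% and 1.62% in the ACE-seq control and 1.11%, 1.57% and 1.58% in the DDD-seq control. Grik1 overlaps 5 long noncoding RNA genes, whose bins were kept.

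The first comparison set chronic sleep deprivation against control in DDD-seq. With 1 library listed in each group there is no replicate error and no test. A gene was counted as different in size when its mean bin difference was at least 0.25 percentage points. None of the 5 genes met this in either direction. Of the 6664 protein-coding genes that span 5 bins or more, 6.87% were higher and 8.06% lower by that size in the sleep-deprived library, and 1.07% were higher and 1.34% lower by 0.5 points. Of those that span 20 bins or more, 1.47% were higher and 1.65% lower by 0.25 points, and 0.0917% higher and 0% lower by 0.5 points. Grik2 had 4.94% after sleep deprivation and 5.02% in the control, a difference of -0.0858 ± 0.176 points (SE over 71 bins), with 35 bins higher and 36 lower.

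In sleep-deprived minus control terms, Grik1 differed by 0.0563 ± 0.0935 points, Grik3 by 0.0114 ± 0.0655 and Grik4 by 0.0475 ± 0.0544. Each of these was smaller than its SE over bins. Grik5 had 1.32% after sleep deprivation and 1.12% in the control, a difference of 0.199 ± 0.144 points over 8 bins, of which 5 were higher, and 22.3% of the 6664 genes differed by at least these 0.199 points in either direction. With the 2 outermost bins left out, 1 of which holds 152 bases of Grik5 and both of which are shared with a neighbouring gene, its difference was 0.336 points and thus past the size used here. The largest differences of single bins in Grik5 were 0.778 points in chr7:25050001-25060000 and 0.606 points in chr7:25030001-25040000.

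Within Grik2 the small overall difference was made of parts with different signs. Sleep-deprived minus control, its 5′ part differed by -0.448 ± 0.373 points, the middle part by 0.399 ± 0.313 and the 3′ part by -0.214 ± 0.170. Parts of mixed sign were found in the other genes too. In Grik3 the 5′, middle and 3′ parts differed by -0.0691 ± 0.0824, -0.153 ± 0.0858 and 0.291 ± 0.116 points. In Grik4 they differed by 0.0466 ± 0.0991, 0.194 ± 0.0925 and -0.109 ± 0.0770 points, and in Grik5 by 0.231 ± 0.285, 0.452 ± 0.134 and -0.230 ± 0.0108 points, the last over 2 bins only. In Grik1, by position, they differed by 0.103 ± 0.166, -0.00908 ± 0.181 and 0.0768 ± 0.144 points. Without further libraries no part can be said to have changed.

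**Figure D5:**
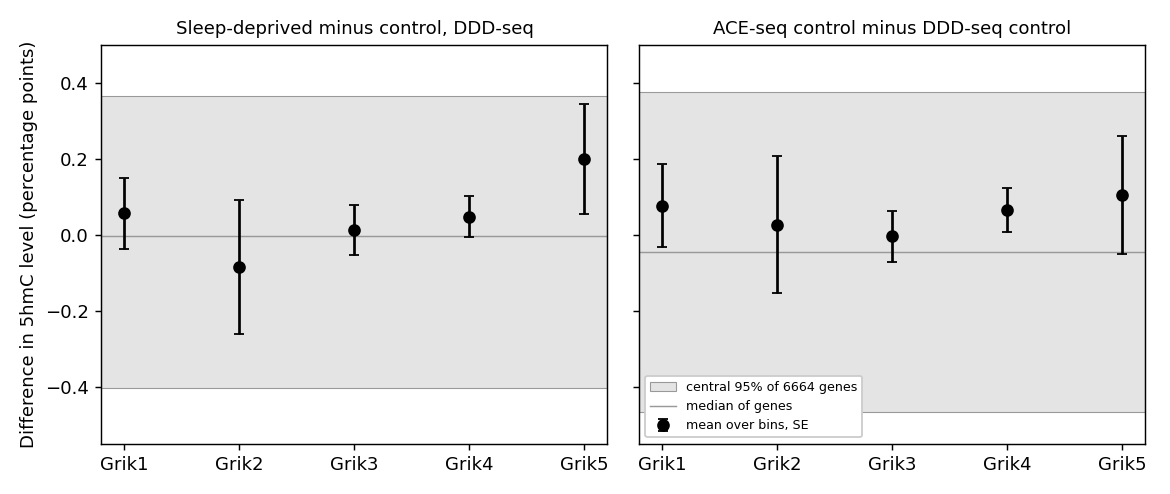
Difference in 5hmC level in percentage points over the bins of each gene (point: mean; line: SE over bins), sleep-deprived minus control in DDD-seq (left) and ACE-seq control minus DDD-seq control (right), with the central 95% (shaded) and the median (grey line) of 6664 protein-coding genes. All 5 genes lie inside the shaded range in both panels.

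The second comparison set the ACE-seq control against the DDD-seq control, which is the same DDD-seq library as in the first comparison. None of the 5 genes differed by 0.25 points, against 6.11% of the 6664 genes that were higher and 12.6% that were lower by ACE-seq. At 0.5 points these shares were 1.16% and 1.86%. For genes of 20 bins or more they were 1.19% higher and 4.86% lower at 0.25 points, and 0.367% higher and 0.275% lower at 0.5 points. Grik2 had 5.05% by ACE-seq and 5.02% by DDD-seq, a difference of 0.0255 ± 0.180 points, with 36 bins higher and 35 lower. The difference was 0.0758 ± 0.109 points in Grik1, -0.0044 ± 0.0673 in Grik3, 0.0648 ± 0.0569 in Grik4 and 0.105 ± 0.155 in Grik5. Only that of Grik4 exceeded its SE. Without its 2 outermost bins, Grik5 differed by 0.232 points. The median over all 6664 genes was -0.0457 points, and each of the 5 genes lay above it. The decline along Grik2 was shallower in the ACE-seq control library, whose 3′ part was higher than that of the DDD-seq control by 0.424 ± 0.324 points. With 1 library listed per group, no difference between the methods can be told from this.

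Genes whose products bind, edit or traffic kainate receptors were taken as a list of 14, and 9 of them had at least 5 bins. The median level of these 9 was 2.90% in the sleep-deprived library, 2.99% in the ACE-seq control and 2.78% in the DDD-seq control. Of the 9, 6 had a body at least 1.5 times the flanks in all 3 libraries, against 13.3% of all genes tested. These were Neto2, an auxiliary subunit of kainate receptors, Adarb1, which encodes the editing enzyme ADAR2 that recodes GluK1 and GluK2 transcripts, the scaffold gene Dlg1, the ubiquitin ligase scaffold gene Cul3, the N-cadherin gene Cdh2 and the SNARE gene Snap25. At 2 times the flanks, 2 of the 9 passed, Dlg1 and Cul3, against 4.16% of all genes tested. The list was chosen with earlier results of these data known, so these shares are a description and show no enrichment.

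Cul3 was the highest of the list, with 5.30% in the sleep-deprived library, 5.94% in the ACE-seq control and 5.43% in the DDD-seq control. Snap25 had 4.06%, 4.42% and 4.72%, Dlg1 3.55%, 3.51% and 3.67%, and Neto2 3.04%, 3.25% and 2.89%. Neto2, the lowest of these 4, exceeded 93.1% of the 6664 genes in the DDD-seq control. Cdh2 had 2.90%, 2.99% and 2.78%, and Adarb1 2.53%, 2.19% and 2.46%.

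The auxiliary subunit genes differed from each other. Neto1 had 1.47% in the sleep-deprived library, 1.33% in the ACE-seq control and 1.50% in the DDD-seq control, about the level of Grik1 and below that of Neto2. The scaffold gene Grip1 had 1.43%, 1.34% and 1.37% over 64 bins, and the kinesin gene Kif17 had 1.15%, 1.17% and 1.04%. The 5 short genes, with 1 to 4 bins each, were C1ql2 (1.03%, 0.979% and 1.23%) and C1ql3 (1.30%, 1.65% and 1.36%), which encode secreted C1q-like proteins, Pick1 (1.19%, 1.07% and 1.09%) and Dlg4 (1.42%, 1.57% and 1.09%), which encode scaffolds, and Klhl17 (1.05%, 1.05% and 1.02%), an adaptor of the ubiquitin ligase.

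After sleep deprivation, 5 of the 9 longer genes had a higher level than in the control and 4 a lower one, with a median of 0.0537 points. Snap25 was the only one past 0.25 points, at -0.661 ± 0.328 points over 8 bins. For 0.25 points, 1 lower gene of 9 is near the 8.06% of all genes that were lower (6.87% were higher). Snap25 was also past 0.5 points, by which 1.34% of all genes were lower and 1.07% higher. Between ACE-seq and DDD-seq controls, Neto2 (0.361 ± 0.224 points) and Cul3 (0.510 ± 0.475) were higher and Adarb1 (-0.265 ± 0.200) and Snap25 (-0.299 ± 0.441) lower by ACE-seq by at least 0.25 points, against 6.11% higher and 12.6% lower over all genes.

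The protein-coding genes nearest to each member in level over the 3 libraries were taken by Euclidean distance. Those of Grik2 include Zfpm2 (5.06% in the sleep-deprived library, 5.04% in the ACE-seq control and 5.04% in the DDD-seq control; distance 0.124 points) and Wac (4.97%, 4.93% and 4.93%; distance 0.152). For Grik1 they were Cdh22, Fam169a and Zc3h18, for Grik3 Stab2, Crispld2 and Abcc3, for Grik4 Parp14, Lhx4 and C1qtnf7, and for Grik5 Otog, Gm46320 and Tnfrsf8, at distances of at most 0.0290 points.

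Genes that mark cerebellar cell types were read as 5hmC levels only. Of 4 granule cell genes, Etv1 had 6.70% in the sleep-deprived library, 6.42% in the ACE-seq control and 6.52% in the DDD-seq control. Gabra6, a GABA receptor subunit gene, had 4.14%, 2.87% and 2.99% over 3 bins, and the short genes Zic1 and Neurod1 lay between 0.920% and 1.25%. The 4 Purkinje cell genes lay between 0.841% and 1.55%, the 3 interneuron genes between 1.0% and 1.43%, the 3 oligodendrocyte genes between 0.659% and 1.76%, the 3 astrocyte genes between 0.960% and 1.56%, and the 3 genes of other tissues between 0.908% and 1.42%. The mean of all bins was 1.54% in the sleep-deprived library, 1.50% in the ACE-seq control and 1.54% in the DDD-seq control.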

How the data were processed

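The authors deposited 1 table with a 5hmC fraction per 10 kb bin for 3 libraries of mouse cerebellum DNA, per the file headers and their values, which lie within 0 and 1. FastQC, Trimmomatic and Bismark are named in the submitters' processing notes, without versions. The cytosines, the coverage filter and the averaging behind a fraction are not stated in the labels or headers. Both DDD-seq columns are named "all" and may pool runs or libraries, and each was read as the authors' value for its group. The processing notes name hg19, but the bins lie on 21 mouse chromosomes, whose last bins ended 1.33 to 211.9 kb after the last gene of GRCm38.p6, and the bins were treated as GRCm38. No read counts accompany the fractions, so depth is unknown and no counting interval was possible. Fractions were multiplied by 100. Bins overlapping a RefSeq gene by at least 1 base were averaged, and flanks were the 10 bins on each side. Differences were taken bin by bin. Levels of all protein-coding genes of at least 5 bins served as background, and those of at least 20 bins for start bins and gene parts. Named genes were the 5 members, a list of receptor partners, cell type markers, the 3 genes nearest in level and the 3 highest bins of a gene. Neighbouring and other genes named beside them, and other single bins, were chosen after their values were seen, and some genes that these rules name are not reported here. Members and lists were chosen with earlier results of these data known. Alternatives covered the averaging, the edge bins, zeros, shared bins, scaling, flank width, a shift of positions and the thresholds. The gene table was tested on simulated data. Versions were Python 3.11.15, matplotlib 3.10.9, scipy 1.17.1, numpy 2.4.6 and pandas 2.3.3.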

Additional observations from a re-analysis of the deposited data

How the results depend on the processing

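Of 245 alternative values for the 5 genes, 220 moved by less than 1 SE over bins and 22 moved by 1 SE or more. A further 2 passed 0.25 points, and 1 changed the sign of a value that had exceeded its SE. Other sign changes, all of values smaller than their SE, were counted by the size of the move only. The level of Grik2 stayed between 4.29% and 5.18%, and its body minus flank difference between 2.46 and 3.40 points, while the levels of the other 4 genes lay between 1.08% and 1.53%. Medians over bins in place of means gave Grik2 4.63% in the sleep-deprived library, 4.68% in the ACE-seq control and 4.29% in the DDD-seq control, Grik1 1.35%, Grik4 1.23% and Grik5 1.14% in the sleep-deprived library, and Grik3 1.13%, Grik4 1.19% and Grik5 1.21% in the DDD-seq control. In the DDD-seq control, medians gave body minus flank differences of 2.46 points in Grik2, -0.188 in Grik3 and -0.131 in Grik5. Flanks of 200 kb gave 0.0815 points in Grik1 and -0.369 in Grik4 in the sleep-deprived library. In the DDD-seq control they gave -0.0691 in Grik1 (sign changed), -0.524 in Grik4 and -0.129 in Grik5. Flanks of 50 kb gave -0.0977 points in Grik4 in the sleep-deprived library. Few flanking bins beside Grik4, and only chr7:24950001-24960000 beside Grik5, were free of protein-coding genes. Such bins gave Grik4 -0.0413 points in the sleep-deprived library, 0.0513 (sign changed) in the ACE-seq control and -0.164 in the DDD-seq control. They gave Grik5 -0.178 in the ACE-seq control and -0.0747 in the DDD-seq control. The cause was not tested. The sleep-deprived minus control difference of Grik5 became 0.336 points both with bins wholly inside the gene and without bins shared with another gene, which leave out the same 2 bins. Of 6662 genes, 884 had a body at least 1.5 times the flanks. The count was 277 at 2 times and 224 with genes of at least 20 bins. Genes higher in the sleep-deprived library numbered 71 at 0.5 points and 16 with at least 20 bins (458 before), and lower ones 89 and 18 (537 before). For ACE-seq these counts were 77 and 13 (407 before) for higher and 124 and 53 (842 before) for lower genes. These counts fall by construction. No paired analysis was possible because each group has 1 set of values. The lack of read counts limits every single-bin value, and the lack of replicates limits both comparisons.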
